A study of Rattus norvegicus with 8 samples.

Results

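Striatal interneuron markers and peptides are a small group of transcripts made by the local-circuit neurons of the striatum. The group described here was set by name and holds 9 genes, Npy, Sst, Nos1, Pvalb, Calb2, Vip, Cck, Lhx6 and Nkx2-1, and all of them had a row among the 17337 genes of the count data. The data are mRNA sequencing of the striatum of 8 male wild-type Sprague-Dawley rats. Of these, 4 had self-administered methamphetamine (METH) through a jugular catheter at 0.05 mg/kg per infusion, in sessions of 2 h per day over 16 days, and the other 4 pressed for saline in sessions of equal length and number. Both groups were first trained to press a lever for food, both had the same catheter surgery and both were anesthetized with ketamine and xylazine before the brain was taken. The rats were chosen from a larger set for a stable rate of lever pressing over the last days, their age is not stated, and the methods give no time between the last session and tissue collection. Each library is 1 rat and none was pooled.

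Most neurons of the striatum are GABAergic projection neurons, and the interneurons are a minority that differ in their peptides, calcium-binding proteins and firing. One class makes somatostatin (Sst), neuropeptide Y (Npy) and neuronal nitric oxide synthase (Nos1) together, the fast-spiking class makes parvalbumin (Pvalb), and yet another makes calretinin (Calb2). Nkx2-1 and, after it, Lhx6 are transcription factors that specify many of these cells in the medial ganglionic eminence before birth, while vasoactive intestinal peptide (Vip) and cholecystokinin (Cck) are better known from interneurons and, for Cck, excitatory neurons of the cortex.

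The cAMP response element (CRE), the site bound by CREB, was first worked out on the Sst promoter, so the promoters were searched for it. RefSeq promoter windows (assembly GRCr8, 250 bases before to 50 bases after the annotated start) were held for 7 of the 9 genes, all except Calb2 and Cck. The full CRE, TGACGTCA, reads the same on both strands and was found in 2 of the 7 windows, those of Sst and Nos1, and in 1.83% of all 33469 windows. It began 3 bases after the annotated start of Sst and 9 bases before that of Nos1. The shorter core TGACG, searched on both strands and also counted inside the full site, was found in 4 of the 7 windows (Sst, Nos1, Pvalb and Vip) and in 21.2% of all windows. The match in Sst was known before the search and is part of both counts, so they cannot be set against the shares of all windows. The stretches with the full site, and the Vip stretch with the core alone, are given with the matched letters in capitals. The capital letters agree because the search asked for them. Further stretches with the core alone, in Nos1 and Pvalb, are not printed. A match is a description of the letters, and binding was not measured.
Sst, chr11:90461538-90461565, plus strand: cctccttggcTGACGTCAgagagagagt
Nos1, chr12:44371829-44371856, minus strand: gacgccaagtTGACGTCAaagacagagg
Vip, chr1:44470373-44470397, plus strand: atcaccactgTGACGtctttcgagg

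The count data held between 18135939 and 21211920 reads on genes per rat. Values are given as CPM, the standard unit of reads relative to library size, scaled here by the TMM method, and at this depth 3 counts, taken as the lowest detected level, came to between 0.142 and 0.169 CPM. Because CPM does not correct for the length of a transcript, levels are compared between rats and not between genes. Markers of striatal projection neurons were high in every rat, with a summed level of 15524 to 20387 CPM over 13 genes. Genes with at least 1 read numbered 13142 in METH replicate 3 and 13333 to 13410 in the remaining 7 rats. Saline replicate 1 stood apart in markers of cortical excitatory neurons, and 7 of the 9 such markers with counts were highest there. The lead was small for Cux2 (17.7 against 16.3 CPM in saline replicate 2) and Lamp5 (266.4 against 242.8 CPM in METH replicate 4). Fezf2 and Neurod1 were highest in METH replicate 1.

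Of the 9 genes, none was called different between METH and saline rats, where 0.516% of the 12014 genes tested were called (edgeR quasi-likelihood test, with an FDR under 0.05 and a mean over 1 on the log2 CPM scale). Only 7 of the 9 passed the filter on low counts, since Npy and Vip were too low to be tested. At an unadjusted p below 0.05, 0 of the 7 differed, against 11.1% of all genes tested, and the likelihood ratio and exact tests of edgeR, DESeq2 and limma-voom also called 0. In none of the 9 genes were the 4 METH rats separate from the 4 saline rats, while 6.39% of all genes tested had no overlap between the groups. The log2 fold changes (METH minus saline) of the 7 genes had a median of -0.18, with 3 higher and 4 lower, against a median of -0.0055 over all genes tested. Without saline replicate 1 the median of the 7 genes was 0.10, with 4 higher and 3 lower, and without METH replicate 3 it was -0.041, with 2 higher and 5 lower. In striatum taken as a whole, a change in the number of cells of a class and a change in the RNA of each cell cannot be told apart.

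**Figure D1:**
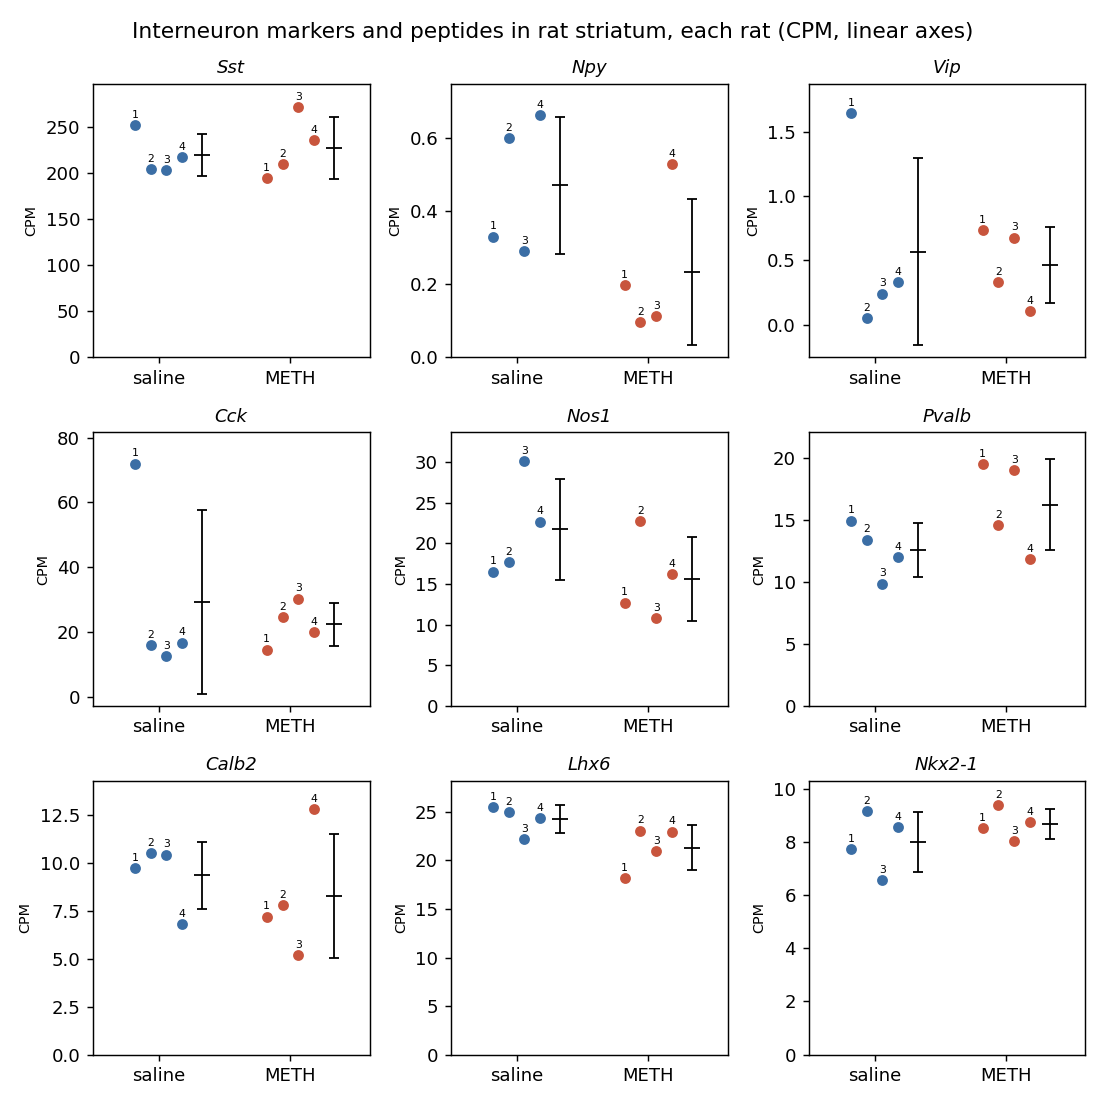
Levels of the 9 genes in each rat, in CPM on linear axes, with saline rats in blue and METH rats in red, numbered by replicate. Black bars are the mean and SD of the 4 rats. The groups overlap in every panel, and in the panels of Cck and Vip saline replicate 1 lies above all other rats.

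Sst encodes the precursor of somatostatin, a peptide that inhibits neurons and hormone release. Its level was 252.2, 204.4, 203.4 and 217.3 CPM in saline replicates 1 to 4 and 194.3, 209.3, 271.2 and 235.7 CPM in METH replicates 1 to 4. The highest rat was METH replicate 3 and the lowest METH replicate 1, so that the METH rats spanned the whole saline range. The fitted level in METH rats was 1.04 times that in saline rats, with a 95% confidence interval from 0.886 to 1.22 times (0.05 on the log2 scale, standard error 0.11, FDR = 0.879, edgeR quasi-likelihood test). The level of the highest rat was 1.40 times that of the lowest. Without METH replicate 3 the log2 fold change was -0.041.

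Npy encodes neuropeptide Y, which acts on receptors that lower transmitter release. Saline replicates 1 to 4 had only 6, 12, 6 and 14 reads on it, and METH replicates 1 to 4 only 4, 2, 2 and 10. METH replicates 2 and 3 were below the detection level of 3 counts, and METH replicate 4 was within the saline range. The mean was 0.470 ± 0.188 CPM among saline and 0.233 ± 0.201 CPM among METH animals (mean ± SD, n = 4 each), and the difference in log2 CPM had p = 0.114 in an exact permutation test over the rats (two-sided). When all genes with at least 1 count were fitted, the log2 fold change was -1.002 with a 95% confidence interval from -2.49 to 0.49 (FDR = 0.625, edgeR quasi-likelihood test). With so few reads no difference in Npy was detected, and the wide interval does not exclude one. Expression of Npy in striatal interneurons is textbook knowledge, and why so few reads were counted on it was not tested. The annotation and strand setting of the counting are not given in the sources used here.

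Nos1, the neuronal nitric oxide synthase, makes the diffusible messenger nitric oxide. Its level was 16.5, 17.7, 30.2 and 22.7 CPM in saline replicates 1 to 4 and 12.7, 22.7, 10.8 and 16.2 CPM in METH replicates 1 to 4. METH replicates 1, 3 and 4 were below all saline rats, and METH replicate 2 was level with the second highest saline rat. The log2 fold change was -0.48 (standard error 0.23, unadjusted p = 0.0550, FDR = 0.457, edgeR quasi-likelihood test), and the 95% confidence interval of the METH level ran from 0.511 to 1.01 times the saline level. With 1 rat left out it lay between -0.72, without METH replicate 2, and -0.28, without saline replicate 3. In saline replicate 3, where Nos1 was highest, 7 of 13 genes of the nitric oxide pathway were also at their highest level. The summed level of the pathway was not highest there. It was 2676 CPM in this rat, 2628 to 2753 CPM over the saline rats and 2685 to 2839 CPM over the METH rats. The same rat was highest for 3 of 6 GABA synthesis and transport genes and 5 of 18 further interneuron markers. It was highest for 4 of 13 projection neuron markers and 1 of 15 interneuron transcription factors. The share over all genes was not computed, and the part of these genes in the Nos1 value was not tested.

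Pvalb encodes parvalbumin, a calcium buffer of fast-spiking cells. It was at 14.9, 13.4, 9.85 and 12.003 CPM in saline replicates 1 to 4 and at 19.5, 14.6, 19.0 and 11.8 CPM in METH replicates 1 to 4. METH replicates 1 and 3 were above every saline rat, whereas METH replicates 2 and 4 were within the saline range. The mean was 12.5 ± 2.16 CPM among saline and 16.2 ± 3.69 CPM among METH animals (mean ± SD, n = 4 each), a log2 fold change of 0.37 (standard error 0.18, unadjusted p = 0.0551, FDR = 0.457, edgeR quasi-likelihood test). Its 95% confidence interval ran from 0.994 to 1.68 times the saline level. The log2 fold change stayed between 0.27 and 0.50 with 1 rat left out.

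Calb2 encodes calretinin, the second calcium-binding protein of the group. Levels of 9.72, 10.5, 10.4 and 6.80 CPM were found in saline replicates 1 to 4 and of 7.19, 7.81, 5.20 and 12.8 CPM in METH replicates 1 to 4. Both the lowest rat (METH replicate 3) and the highest (METH replicate 4) were METH rats, and their levels differed 2.47 times. The log2 fold change was -0.18 (standard error 0.24, FDR = 0.807, edgeR quasi-likelihood test), and it moved from -0.47 without METH replicate 4 to -0.015 without METH replicate 3.

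**Figure D2:**
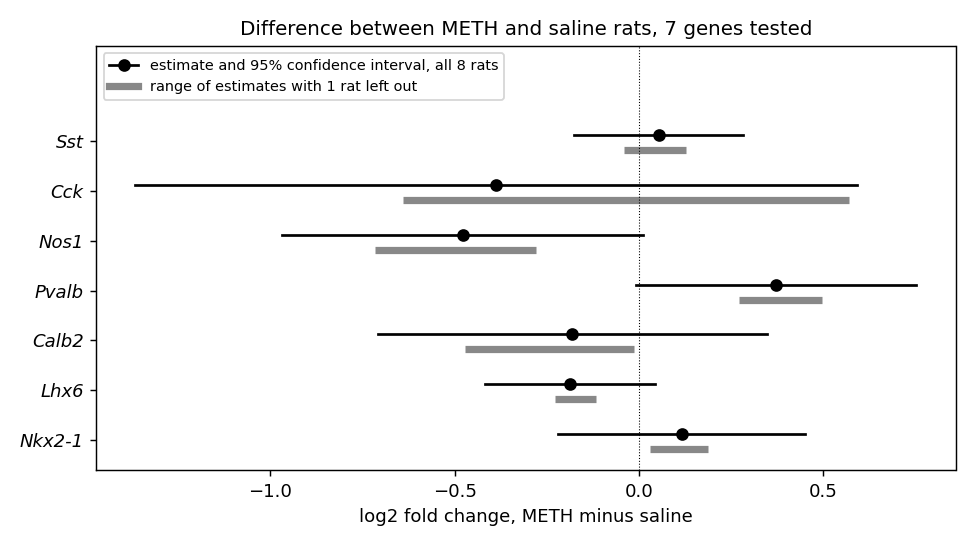
Log2 fold change (METH minus saline) of the 7 genes tested, with the 95% confidence interval over all 8 rats in black and the range of estimates with 1 rat left out in grey. Each black interval includes 0, those of Nos1 and Pvalb reach only just past it (0.012 and -0.0093), and the grey ranges of Cck and Sst lie on both sides of 0.

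Lhx6, which interneurons of the medial ganglionic eminence keep on into adult life, was at 25.5, 24.9, 22.2 and 24.4 CPM in saline replicates 1 to 4 and at 18.2, 23.1, 20.95 and 22.98 CPM in METH replicates 1 to 4. Only saline replicate 3 was within the METH range, and the other 3 saline rats were above all METH rats. The log2 fold change was -0.19 (standard error 0.11, FDR = 0.522, edgeR quasi-likelihood test), with p = 0.0857 in the exact permutation test over the rats (two-sided). The 95% confidence interval ran from 0.748 to 1.03 times the saline level.

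Nkx2-1, the factor that acts before Lhx6, was at 7.74, 9.15, 6.57 and 8.55 CPM in saline replicates 1 to 4. The METH rats had 8.52, 9.38, 8.02 and 8.75 CPM in the same order. All METH rats lay close together, with an SD of 0.564 CPM, inside or just above the wider saline range. The estimate on the log2 scale was 0.12 (standard error 0.16, FDR = 0.807, edgeR quasi-likelihood test), and the 95% confidence interval ran from 0.858 to 1.37 times the saline level. Nkx2-1 is also made in the hypothalamus, whose markers had a summed level of 15.8 to 51.6 CPM in saline rats, highest in saline replicate 2, and of 16.4 to 89.7 CPM in METH rats, highest in METH replicate 4, with Sim1 and Pmch at 0 in every rat. The part of such RNA in the Nkx2-1 level was not tested.

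Cck encodes cholecystokinin, a peptide of many cortical neurons. In saline replicate 1 it was at 72.0 CPM, from 1311 reads, and in saline replicates 2, 3 and 4 it was at 15.8, 12.6 and 16.7 CPM. The METH rats had 14.5, 24.6, 30.3 and 19.9 CPM. With all rats the log2 fold change was -0.39 (standard error 0.45, FDR = 0.779, edgeR quasi-likelihood test). Without saline replicate 1 it turned to 0.57 (standard error 0.21, FDR = 0.352 by the same test), where the FDR lay between 0.352 and 0.995 over the alternatives tried. METH replicates 2, 3 and 4 were then above the 3 remaining saline rats, and METH replicate 1 was among them.

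Vip encodes vasoactive intestinal peptide and was near the limit of detection in most rats, with 30, 1, 5 and 7 counts in saline replicates 1 to 4 and 15, 7, 12 and 2 counts in METH replicates 1 to 4. Again saline replicate 1 was the highest rat. When all genes with at least 1 count were fitted, its log2 fold change was -0.27 with a 95% confidence interval from -2.03 to 1.48 (FDR = 0.932, edgeR quasi-likelihood test). With so few reads no difference in Vip was detected, and the wide interval does not exclude one.

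Slc17a7, the vesicular glutamate transporter of cortical excitatory neurons, was at 65.8 CPM in saline replicate 1. In the other saline rats it was between 3.12 and 3.67 CPM and in METH rats between 3.58 and 12.2 CPM. The cortical transcription factors Neurod2, Neurod6 and Tbr1 were at 4.06, 3.62 and 3.79 CPM in saline replicate 1 and each at or below 0.619 CPM in every other rat. The summed level of the 9 cortical markers that have a row was 371.8 CPM in this rat, 238.0 to 264.2 CPM in the other saline rats and 238.3 to 266.0 CPM in METH rats, of which Lamp5, also made in the striatum, carried 266.4 CPM in saline replicate 1. The part of cortical RNA in the Cck and Vip levels of this rat was not tested.

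Relations across the 8 rats were computed for 6 pairs of genes. Cck and Slc17a7 had Pearson's r of 0.93 (exact permutation p = 0.00826, adjusted over the 6 pairs p = 0.0496) and Spearman's rho of 0.60 (exact permutation p = 0.132, adjusted p = 0.397). Without saline replicate 1 and METH replicate 3, the 2 rats farthest from the median of Cck, r was 0.72 (exact permutation p = 0.121). With 1 rat left out, r was lowest without saline replicate 1, at 0.68 (exact permutation, adjusted p = 0.305), and highest without METH replicate 3, at 0.96 (exact permutation, adjusted p = 0.101). The adjusted p of this pair no longer passed 0.05 in 8 of 10 alternatives. Vip and Slc17a7 had r of 0.72 (exact permutation p = 0.0379, adjusted p = 0.114) and rho of 0.76 (exact permutation p = 0.0368, adjusted p = 0.221), and r was 0.22 without saline replicates 1 and 2. Without METH replicate 1 alone it was 0.83 and passed the threshold (exact permutation, adjusted p = 0.0429), and without saline replicate 1 alone it was 0.36.

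**Figure D3:**
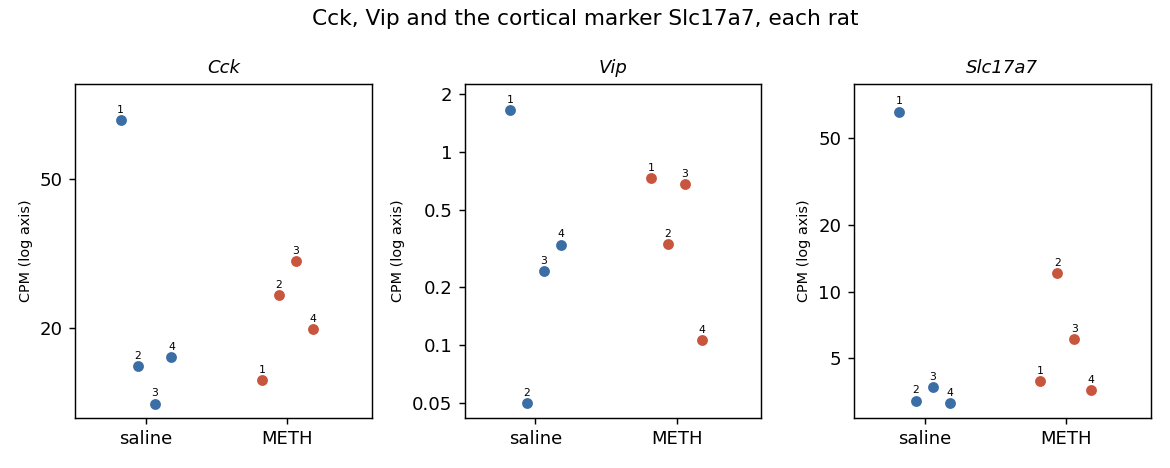
Levels of Cck, Vip and the cortical marker Slc17a7 in each rat, in CPM on log axes, numbered by replicate. Saline replicate 1 is the highest rat in each panel, at 72.0 CPM for Cck, 1.65 CPM for Vip and 65.8 CPM for Slc17a7.

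Over all 8 rats no relation was detected among Sst, Npy and Nos1, the markers of 1 class. Npy had only 2 to 14 reads per rat and a counting error of 37.8%, so the pairs with Npy can show little either way. Sst and Nos1 had r of -0.50 (exact permutation p = 0.213, adjusted p = 0.320, rho -0.40 with permutation p = 0.327, adjusted p = 0.654), and r was 0.048 without saline replicate 1 and METH replicate 3. Without METH replicate 1, r of Sst and Nos1 was -0.85 and passed the threshold (exact permutation, adjusted p = 0.0411). Sst and Npy had r of -0.15 (exact permutation p = 0.708, adjusted p = 0.708, rho 0.024 with permutation p = 0.977, adjusted p = 0.977) and Npy and Nos1 had r of 0.27 (exact permutation p = 0.509, adjusted p = 0.611, rho 0.14 with permutation p = 0.752, adjusted p = 0.902). Without the 2 rats farthest from the median of the first gene, these were 0.47 and 0.23. Pvalb and Lhx6 had r of -0.55 (exact permutation p = 0.158, adjusted p = 0.316, rho -0.24 with permutation p = 0.582, adjusted p = 0.873), and -0.57 without METH replicate 1 and saline replicate 3.

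The genes also differed in how much they varied between rats of the same group. The biological coefficient of variation fitted by edgeR was 11.1% for both Sst and Lhx6, 15.4% for Nkx2-1, 17.7% for Pvalb, 22.5% for Nos1, 24.2% for Calb2 and 43.5% for Cck. Among genes within 0.5 log2 CPM of their own mean level, Nos1 was higher than 97.5% and Cck higher than 99.95%. Calb2, Sst and Pvalb were higher than 93.4%, 84.1% and 81.8% of such genes, whereas Lhx6 and Nkx2-1 were higher than only 24.9% and 16.01%. The value of Cck rested on saline replicate 1, without which it was 19.3% and higher than in 94.8% of genes of like level. The counting error alone was 1.51% for Sst and at most 7.78% for the other 6 genes tested.

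Receptors for these peptides were measured next to them. Of 14 receptor genes, 12 were tested, 4 had a higher and 8 a lower fitted level in METH rats, with a median log2 fold change of -0.16. None was called, and 4 had an unadjusted p below 0.05, where 11.1% of all genes tested did. The log2 fold changes ran from -1.38 for Sstr5, a somatostatin receptor (FDR = 0.365, edgeR quasi-likelihood test, and -0.89 without saline replicate 4), to 0.55 for Vipr1, a receptor for VIP (FDR = 0.249). Sstr5 was low, with 5 to 56 counts per rat and a mean log2 CPM of 0.14, under the limit of 1 for a call. The other somatostatin receptors lay between -0.92 for Sstr3 (FDR = 0.538) and 0.48 for Sstr2 (FDR = 0.423, same test). In Vipr1 the 4 saline rats had 6.37, 4.60, 6.86 and 6.62 CPM and the 4 METH rats 8.32, 9.71, 8.36 and 9.44 CPM, with no overlap, as in 6.39% of all genes tested (exact permutation p = 0.0286, two-sided, the smallest that 4 rats against 4 allow). Npy1r, the Y1 receptor for neuropeptide Y, was chosen after its values were seen and went the other way. Its level was 10.4, 8.25, 9.56 and 9.07 CPM in saline rats and 6.22, 6.33, 4.97 and 6.38 CPM in METH rats, again with no overlap (exact permutation p = 0.0286, two-sided). The estimate on the log2 scale was -0.64 (standard error 0.16, FDR = 0.132, edgeR quasi-likelihood test). It was called with DESeq2 (FDR = 0.0182), the exact test and the likelihood ratio test, where the FDR over all alternatives lay between 0.0182 and 0.357. Npy4r was at 0 in every rat and Cckar was below the detection level, while Cckbr, the cholecystokinin receptor of the brain, had a log2 fold change of -0.08 (FDR = 0.897, edgeR quasi-likelihood test).

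All 12 genes for the processing and storage of peptides were tested. Of these, 8 had a higher and 4 a lower fitted level in METH rats, with a median log2 fold change of 0.049. None was called, and 2 had an unadjusted p below 0.05, against the same 11.1% of all genes. The highest was Pcsk1, a convertase that cuts peptide precursors, at 7.90, 7.75, 10.7 and 13.9 CPM in saline rats and 18.7, 21.2, 13.8 and 24.9 CPM in METH rats. METH replicate 3 was just below saline replicate 4, and the other 3 METH rats were above all saline rats. Its log2 fold change came to 0.96 (standard error 0.21, unadjusted p = 0.000473, FDR = 0.0738, edgeR quasi-likelihood test), and the FDR was between 0.00163, with DESeq2, and 0.226 over the alternatives. It was called without saline replicate 4 (FDR = 0.0282) and without METH replicate 3 (FDR = 0.0381). Vgf, a secreted granin-like protein that was named after its values were seen, was at 406.0 ± 34.5 CPM among saline and 579.7 ± 114.4 CPM among METH animals (mean ± SD, n = 4 each). Saline replicate 4 (452.9 CPM) was just above METH replicate 1 (451.0 CPM), and the log2 fold change was 0.51 (standard error 0.12, FDR = 0.0999, edgeR quasi-likelihood test, from 0.00553 to 0.267 over the alternatives and 0.0173 without METH replicate 1). The lowest of the list was Scg5, a helper of the convertase PC2, at -0.030 on the log2 scale (FDR = 0.906).

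**Figure D4:**
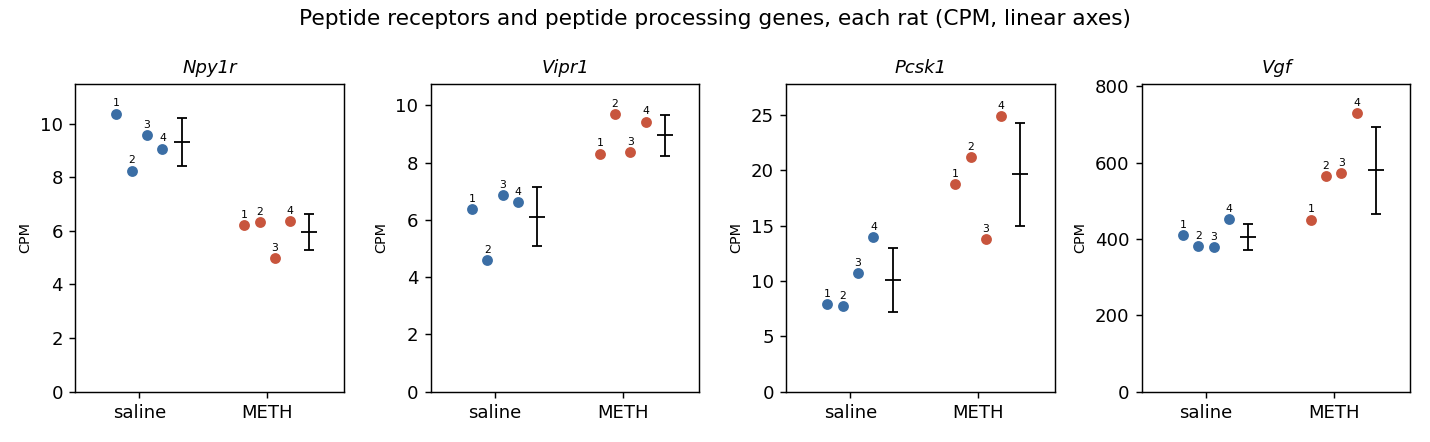
Levels of the receptors Npy1r and Vipr1 and of the peptide processing genes Pcsk1 and Vgf in each rat, in CPM on linear axes, numbered by replicate, with bars for the mean and SD of 4 rats. The groups do not overlap for Npy1r and Vipr1, and they overlap by 1 pair of rats for Pcsk1 (13.8 and 13.9 CPM) and Vgf (451.0 and 452.9 CPM).

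The other genes of interneurons and their messengers gave no call either, and none was called with any alternative. At an unadjusted p below 0.05 there were 4 transcription factors and 0 genes of the other lists in this paragraph. In the nitric oxide pathway, with 13 genes tested, the log2 fold changes had a median of -0.11 and ran from -1.12 for Prkg1, a kinase switched on by cGMP (FDR = 0.495, edgeR quasi-likelihood test, and -0.46 without saline replicate 3), to 0.12 for Ddah2, which breaks down inhibitors of nitric oxide synthase (FDR = 0.736). Among 16 further interneuron markers tested the range was from -0.64 for Erbb4, the neuregulin receptor of fast-spiking cells (FDR = 0.462, and -0.26 without saline replicate 3), to 0.33 for Pthlh (FDR = 0.782, and from 0.11 to 0.71 with 1 rat left out), with a median of -0.08. Chodl, a marker of the cells that make Sst and Nos1 and named after its values were seen, was at 2.28 ± 0.490 CPM among saline and 1.92 ± 0.722 CPM among METH animals (mean ± SD, n = 4 each). The 15 interneuron transcription factors tested lay between -0.74 for Sp8 (FDR = 0.697, and from -1.26 to -0.36 with 1 rat left out) and 0.32 for Dlx5 (FDR = 0.307), with a median of -0.04. Prkg1 and Sp8 were low, with a mean log2 CPM of 0.52 and 0.17, under the limit of 1 for a call. GABA synthesis and transport genes, 6 in all, stayed between -0.11 for Gad2 (FDR = 0.814) and 0.10 for Gad1 (FDR = 0.592). The 9 markers of cholinergic interneurons, the other large interneuron class, lay between -0.28 for Slc5a7, the choline transporter (FDR = 0.467), and 0.08 for Slc18a3, which loads acetylcholine into vesicles (FDR = 0.800).

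**Figure D5:**
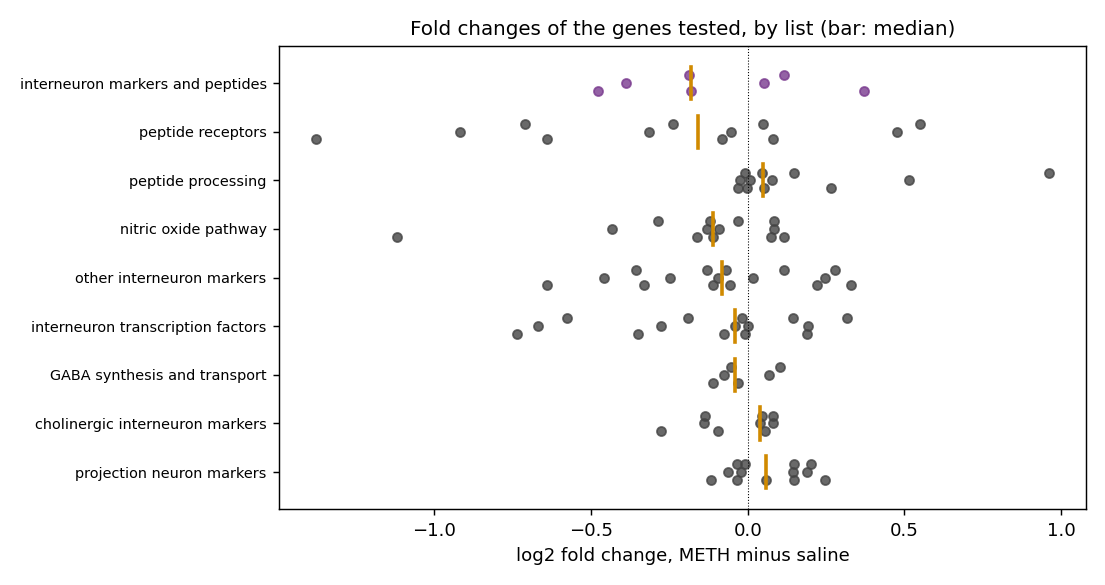
Log2 fold change (METH minus saline) of each gene tested, by list, with the median of each list as a bar. The 7 interneuron markers and peptides (top row) have a median of -0.18, which was 0.10 without saline replicate 1. The medians of the other 8 lists shown lie between -0.16 (peptide receptors) and 0.058 (projection neuron markers), and of the lists not shown that of microglia was lower, at -0.22, and that of choroid plexus was higher, at 0.78. The choroid plexus median is over only 3 genes tested and is the value of Slc4a5, which had 1 to 21 counts per rat.

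Markers of other cells were read on the same libraries. Projection neuron markers ranged from -0.12 for Meis2 (FDR = 0.607, edgeR quasi-likelihood test) to 0.25 for Ppp1r1b (FDR = 0.328), cortical markers from -1.54 for Slc17a7 (FDR = 0.509, and 0.96 without saline replicate 1) to 0.08 for Fezf2 (FDR = 0.925), and hypothalamic markers from -0.41 for Avp (FDR = 0.936) to 3.64 for Oxt (FDR = 0.320, and 0.29 without METH replicate 4). Thalamic markers ranged from -0.48 for Prkcd (FDR = 0.239) to -0.021 for Tcf7l2 (FDR = 0.981), and the 3 choroid plexus markers tested from 0.45 for Folr1 (FDR = 0.525) to 0.79 for Clic6 (FDR = 0.412). Astrocyte markers lay between -0.12 for Aqp4 (FDR = 0.643) and 0.40 for Gfap (FDR = 0.457), and the highest of the oligodendrocyte markers was Mbp at 0.078 (FDR = 0.879). Of the 126 listed genes tested besides the 9, only the microglial receptor Cx3cr1 was called, and it fell by 0.73 on the log2 scale (FDR = 0.0408, edgeR quasi-likelihood test), a call that was lost under 7 of 19 alternatives, where the FDR reached 0.144. These were the fit with a term for the rat number and those without saline replicates 2, 3 or 4 or METH replicates 1, 3 or 4. The other 4 microglial markers were at -0.30 (Aif1, FDR = 0.486), -0.22 (Csf1r, FDR = 0.398), -0.20 (P2ry12, FDR = 0.712) and 0.11 (C1qa, FDR = 0.709) on the log2 scale, none of them called.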

How the data were processed

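Messenger RNA of the striatum was sequenced from 4 METH and 4 saline rats. The authors trimmed the reads with Cutadapt (version 1.18 in the submitters' processing notes), aligned them to rn6 with STAR 2.7.0e and counted them per gene with featureCounts of Subread 1.6.4. They deposited raw counts with 1 column per rat. The annotation, the strand setting and the rule for reads on several genes are not given in the sources used here, so overlapping or near-identical genes are uncertain.

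The analysis used DESeq2 1.42.0, limma 3.58.1 and edgeR 4.0.16 under R 4.3.3. Counts passed filterByExpr (minimum count 10), were scaled by TMM and tested with the edgeR quasi-likelihood test, adjusted by Benjamini-Hochberg over 12014 genes. The standard error is the log2 fold change divided by the square root of F. Log2 CPM used a prior count of 2. Exact permutation tests ran over the 70 labellings of 4 among 8 rats, and correlations over all orders of the rats. The sum of counts per rat ran from 18135939 to 21211920, and precision is limited by counting error and by the spread among 4 rats. Rats of the same group were further apart than sampling of reads allows (chi-square of 10.1 to 27.6 per degree of freedom) and each counted as 1 replicate. The fit was tested on simulated counts.

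The genes and lists were chosen with earlier results of these data known. Named from each list were the called genes, or otherwise its extremes, and others are marked as chosen after their values were seen. Some values of single marker genes are not reported here. Alternatives were other tests, scalings and filters, each rat left out and the rat number as a block. Of the listed genes, 147 had a row, some under an older symbol paired by the RefSeq table of GRCr8.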

Additional observations from a re-analysis of the deposited data

Results flagged for a closer look

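Cck in saline replicate 1 stood apart from the other 3 saline rats. On the log2 CPM scale its gap to the nearest rat was 0.838 of the range of the group, above the 95% value of Dixon's test for 4 samples. It was the only one of 18 groups of 4 rats, over the 9 genes, to do so, and chance gives about 1 in 20. Vip was also highest in this rat, at 1.65 CPM, and 7 of the 9 cortical markers with counts were highest there. The summed level of the cortical markers in this rat had a gap of 0.766 of the saline range, which was not above the 95% value.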

How the results depend on the processing

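None of the 9 genes was called under any of the 19 alternatives, in which between 7 and 9 of them were tested. Over all genes 62 were called, 170 with the likelihood ratio test, 168 with the exact test, 186 with DESeq2, 37 with the replicate block and from 37 (without saline replicate 2) to 70 with 1 rat left out. Of the other listed genes 1 was called, 4 with each of the likelihood ratio test, the exact test and DESeq2 (Cx3cr1, Npy1r, Pcsk1 and Vgf), 2 with no filter on low counts, 0 with the replicate block, and from 0 (without saline replicate 2, saline replicate 3 or METH replicate 4) to 1 with 1 rat left out. That 1 gene was not always the same. It was Cx3cr1 without saline replicate 1 or METH replicate 2, and Vgf without METH replicate 1. Without saline replicate 4 or METH replicate 3 it was Pcsk1. The cause of these differences was not tested.

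Signs turned in a few fits. With the replicate block the log2 fold change of Cck was 0.0099 and that of Avp 1.63, and with limma-voom Avp was at 2.04. With 1 rat left out the log2 fold change ranged from -0.041 to 0.13 for Sst, -0.64 to 0.57 for Cck, -0.073 to 0.0063 for Scg5, -0.21 to 0.076 for Gad2, -2.06 to 0.96 for Slc17a7, -0.072 to 0.18 for Fezf2, -2.67 to 4.59 for Avp, -0.14 to 0.12 for Tcf7l2 and -0.064 to 0.21 for Mbp. The correlation of Sst and Npy then ranged from -0.33 to 0.29 and that of Npy and Nos1 from -0.037 to 0.55, and the latter was -0.11 on deviations from the group means. The median over the 7 genes and the variation of Cck with 1 rat left out were added after seeing the data. Of 810 fold changes, mean differences and correlations under the alternatives, 761 kept their direction and side of the threshold.

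Same-numbered rats are different animals. Their deviations from the group means correlated at -0.20 to 0.036, and 2 of 8 rats correlated best with the rat of their own number, so the numbers do not pair the samples. The block moved the calls over all genes from 62 to 37 and called 0 of the 9 genes. The precision of Npy and Vip is limited by their counts, at most 14 and 30 in any rat.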

Other observations

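For each of the 7 genes tested, the gene whose log2 CPM followed it most closely over the 8 rats was looked up among 10975 others. Pearson's r was 0.98 for Sst with Fkbp1b, 0.99 for Nos1 with Med1, 0.98 for Pvalb with Paqr6, 0.97 for Calb2 with Adcy8, 0.96 for Cck with Rev1, 0.97 for Lhx6 with Park2 and 0.93 for Nkx2-1 with Gatc. These values describe the 8 libraries, which share their depth and composition across genes, and with so many candidates over 8 rats such a high r is easily reached.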
